A study of Mus musculus with 20 samples.

Results

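Gene expression in the striatum was compared between ASO mice that had received neural stem cells (ASO-NSC, 5 mice) and ASO mice that had received saline (ASO-Veh, 5 mice), which are 10 of the 20 arrays of the series. Mice were placed in a group by their sample title, and each array holds the RNA of 1 mouse. Of 41345 rows of the deposited table, 23521 carry exactly 1 gene symbol and give 22180 genes, and all of these were compared. Values are log2 intensities.

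Both groups carry human wild-type α-synuclein driven by the PDGF-β promoter (line D) on the C57B6/J background, and all mice were 12 months old. α-Synuclein is a presynaptic protein that aggregates in Lewy bodies, and this promoter is active mainly in neurons. The NSCs were hippocampal and cortical cells of newborn mice that carry a GFP transgene and share the strain of the hosts, and the striatum was taken after behavioural tests that followed their injection into it. RNA of host cells and of surviving grafted mouse cells cannot be told apart on these arrays. The series also holds 5 WT-NSC and 5 WT-Veh mice, which lack the transgene and here serve only for the spread between mice and for the difference of the NSC effect between genotypes.

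ASO-NSC mouse 59 was left out of the network of the study. The values below leave it out too, with 19 arrays in the fit and 4 ASO-NSC mice, and the main results are also given with it. A difference printed alone is from the 19 arrays. Litters do not cross the comparison. ASO-Veh mice 42 and 45 came from litter 1, mice 46 and 47 from litter 3 and mouse 68 from litter 5, while ASO-NSC mice 56, 57 and 59 came from litter 6 and mice 73 and 75 from litter 4, with the 3 mice of litter 6 labelled male and the 2 of litter 4 labelled female. The effect of litter and that of the NSCs therefore cannot be told apart, nor can litter and sex among the grafted mice. The genes that differ between sexes (Xist, Kdm5d, Uty and Eif2s3y) went against the labelled sex in 5 of the 20 arrays, among them ASO-Veh mice 45 and 47 and no ASO-NSC mouse. Whether a label or a sample was exchanged was not tested, so the values printed for mice 45 and 47 may belong to other mice. The striatal markers Drd1, Drd2, Rgs9 and Pde10a averaged between 10.19 and 11.38 log2 units over all arrays, against a median of 6.73 over all genes.

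Interferons are cytokines that cells release on meeting a virus or foreign nucleic acid, and their receptors switch on a shared set of target genes, such as antiviral proteins, chemokines and the MHC class I pathway. In the brain these targets are expressed by microglia, the resident macrophages, and by astrocytes, which also raise Gfap and other reactive genes around injury and injection sites. The striatum itself is made up mostly of spiny projection neurons of the D1 and D2 type, whose markers give a measure of how much of a sample is striatal neuron. In bulk tissue, fewer cells of a type and less RNA per cell cannot be told apart.

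At an adjusted p under 0.05 (limma, Benjamini-Hochberg over all genes), 2 of 22180 genes rose after grafting and none fell, a share of 0.00902 percent. They were Cxcl10 and Vav1. With mouse 59 in the fit, 1 gene passed, 0.00451 percent, and it was Vav1. At an unadjusted p under 0.05, 1233 genes (5.56 percent) were higher and 734 (3.31 percent) lower without mouse 59. With it, 1736 (7.83 percent) were higher and 972 (4.38 percent) lower. The median difference over all genes was 0.0036 log2 units, and the middle 50 percent of genes lay between -0.0749 and 0.0801.

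A second description asked whether the groups overlapped. In 666 genes (3.0 percent), all 4 ASO-NSC mice lay above all 5 ASO-Veh mice, and in 209 genes (0.942 percent) they lay below. With mouse 59, all 5 lay above in 556 genes (2.51 percent) and below in 145 (0.654 percent). When each array was first centred on its own median, the counts were 948 above and 117 below without mouse 59 and 783 above and 84 below with it, so the surplus of higher genes was wider on that scale. Below, "apart" means that all 5 ASO-NSC mice, mouse 59 included, lay on one side of all 5 ASO-Veh mice, and it is a description without a test. Where members of a list are counted as higher or lower with no threshold beside them, the count is at limma's unadjusted p under 0.05 without mouse 59, and only Cxcl10 and Vav1 passed the adjusted test. All list counts are to be read beside the shares over all genes, 5.56 percent higher, 3.31 percent lower and 2.51 percent apart and higher. A few members can reach these shares in a short list. Whether a list exceeded them was not tested.

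**Figure D1:**
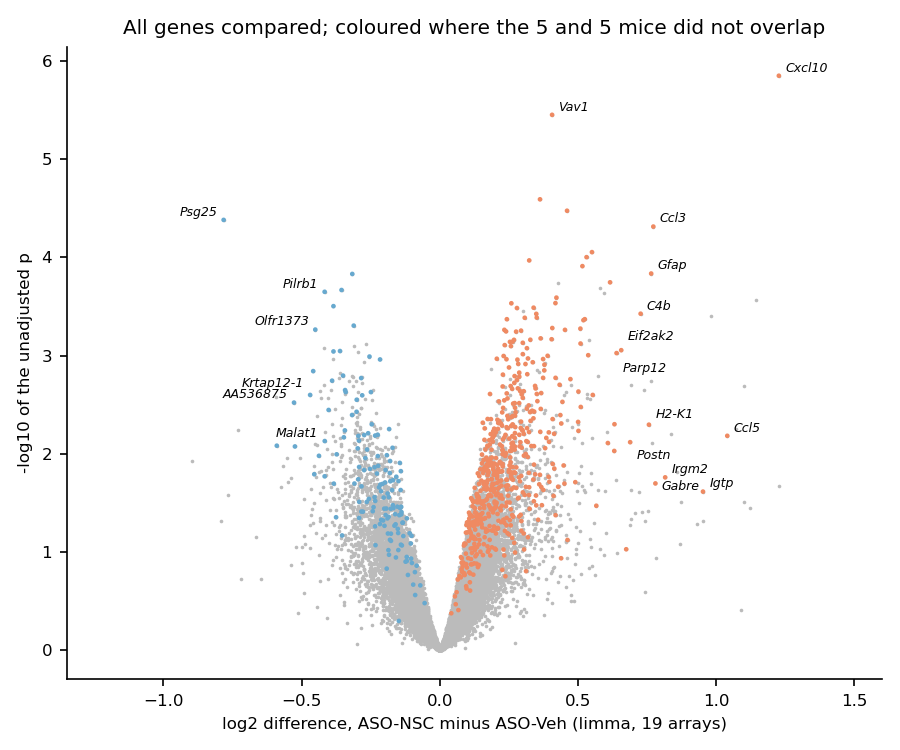
Each point is 1 of 22180 genes, with the log2 difference between ASO-NSC and ASO-Veh mice (19 arrays) on the x axis and -log10 of limma's unadjusted p on the y axis. Orange and blue points are the 556 higher and 145 lower genes whose 5 and 5 mice did not overlap, and Cxcl10 and Vav1 lie highest.

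Cxcl10, the interferon-induced chemokine that attracts T cells through the receptor Cxcr3, was at 5.97, 6.01, 5.79, 5.74 and 5.83 log2 units in ASO-Veh mice 42, 45, 46, 47 and 68. It was at 6.59, 6.97, 7.06 and 7.65 in ASO-NSC mice 56, 57, 73 and 75, and at 6.14 in mouse 59. All 5 grafted mice lay above every vehicle mouse, but mouse 59 lay only just above the highest of them. Means were 7.07 ± 0.44 (SD, n = 4) in ASO-NSC and 5.87 ± 0.12 (SD, n = 5) in ASO-Veh mice, and the log2 difference came to 1.23 ± 0.17 (SE, adjusted p = 0.0315) without mouse 59 and 1.08 (adjusted p = 0.101) with it.

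Vav1, which relays signals from antigen receptors in leukocytes, differed by less but spread little. Its levels were 6.48, 6.40, 6.52, 6.47 and 6.44 in the vehicle mice, in the order above, 6.88, 6.77, 7.01 and 6.81 in the 4 grafted mice and 6.82 in mouse 59. The gap between the highest vehicle and the lowest grafted mouse was wider than the range of the vehicle mice. Means were 6.87 ± 0.10 (SD, n = 4) in ASO-NSC and 6.46 ± 0.05 (SD, n = 5) in ASO-Veh mice, which is a log2 difference of 0.41 ± 0.062 (SE, adjusted p = 0.0394) without mouse 59 and 0.40 (adjusted p = 0.0301) with it.

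Both calls depended on the fit. Of the 9 mice, only without mouse 45 or mouse 56 was the adjusted p of Cxcl10 still under 0.05 when each was left out in turn, with a range of 0.022 to 0.15, and that of Vav1 ran from 0.0745 to 0.24. With the ASO groups fitted alone, the adjusted p from limma was 0.134 for Cxcl10 and 0.214 for Vav1, and without the arrays whose sex genes went against the label it was 0.089 and 0.245. Neither gene passed with litter as a fixed block, where Cxcl10 differed by 1.75 and Vav1 by 0.35, and that fit rests on a single WT-NSC mouse that shares a litter with vehicle mice.

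**Figure D2:**
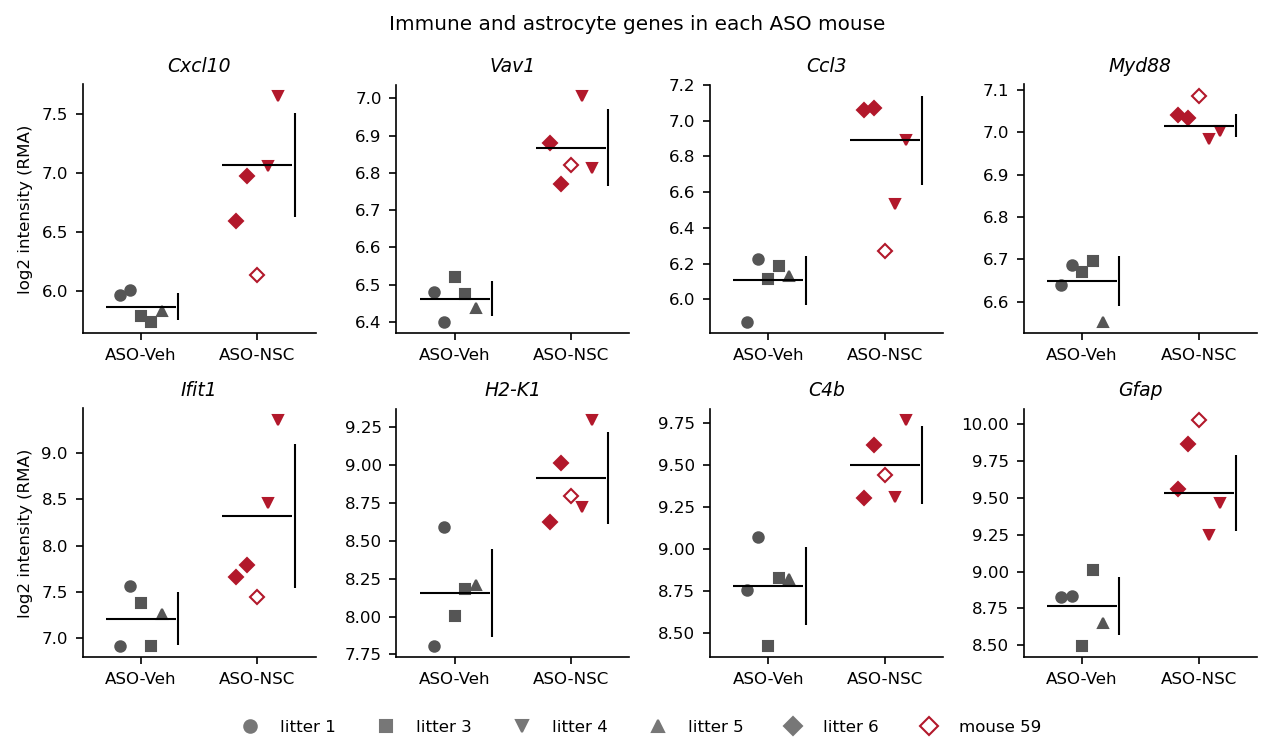
Log2 intensity of 8 genes in each ASO-Veh (grey) and ASO-NSC (red) mouse, with the marker shape for the litter and mouse 59 as an open symbol. Horizontal lines are means and vertical lines SDs, over 5 ASO-Veh mice and the 4 ASO-NSC mice without mouse 59, and all ASO-NSC mice lie above all ASO-Veh mice in each panel but that of Ifit1, where mouse 59 is within the vehicle range.

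The NSC effect in ASO mice did not differ detectably from that in WT mice. In the test of that difference, 0 genes passed limma's adjusted threshold of 0.05, the smallest adjusted p was 0.972, and 807 genes had an unadjusted p under 0.05 (965 with mouse 59). In WT mice the difference between NSC and Veh was 1.19 for Cxcl10 and 0.31 for Vav1. The difference of the effect was 0.04 ± 0.24 (SE) for Cxcl10 and 0.10 ± 0.09 (SE) for Vav1.

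The promoters of Cxcl10 and of 3 other interferon targets are shown because they hold a match to the motif described here, and that of Vav1 because it is the other gene that passed the test. Each is the RefSeq window from 250 bases before to 50 bases after the start of the gene on GRCm38.p6, written 5′ to 3′ on the strand of the gene, with the core of the interferon-stimulated response element (GAAANNGAAA on either strand, overlapping matches merged) in capitals.
Cxcl10: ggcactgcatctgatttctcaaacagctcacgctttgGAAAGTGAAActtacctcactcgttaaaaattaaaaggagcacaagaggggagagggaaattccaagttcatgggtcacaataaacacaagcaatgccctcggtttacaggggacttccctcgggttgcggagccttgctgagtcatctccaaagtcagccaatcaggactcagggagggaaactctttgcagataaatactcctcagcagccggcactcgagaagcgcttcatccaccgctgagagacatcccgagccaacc
Ifit1: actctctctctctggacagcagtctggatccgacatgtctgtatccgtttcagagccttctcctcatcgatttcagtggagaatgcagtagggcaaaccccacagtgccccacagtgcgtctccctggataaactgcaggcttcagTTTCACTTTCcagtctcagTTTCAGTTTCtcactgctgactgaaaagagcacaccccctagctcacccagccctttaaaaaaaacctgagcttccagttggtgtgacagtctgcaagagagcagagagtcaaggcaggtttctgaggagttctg
Gbp3: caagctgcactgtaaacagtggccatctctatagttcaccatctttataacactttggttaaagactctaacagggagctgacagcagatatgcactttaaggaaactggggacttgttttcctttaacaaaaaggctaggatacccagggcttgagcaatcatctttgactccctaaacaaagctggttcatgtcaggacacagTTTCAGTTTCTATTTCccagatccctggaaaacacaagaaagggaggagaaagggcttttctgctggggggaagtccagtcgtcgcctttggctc
Rsad2: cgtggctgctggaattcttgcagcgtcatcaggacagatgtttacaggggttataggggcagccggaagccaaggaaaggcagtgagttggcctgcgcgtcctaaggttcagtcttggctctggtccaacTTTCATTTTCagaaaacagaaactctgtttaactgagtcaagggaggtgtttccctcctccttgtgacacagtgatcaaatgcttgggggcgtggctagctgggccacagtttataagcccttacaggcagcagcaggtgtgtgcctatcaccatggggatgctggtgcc
Vav1: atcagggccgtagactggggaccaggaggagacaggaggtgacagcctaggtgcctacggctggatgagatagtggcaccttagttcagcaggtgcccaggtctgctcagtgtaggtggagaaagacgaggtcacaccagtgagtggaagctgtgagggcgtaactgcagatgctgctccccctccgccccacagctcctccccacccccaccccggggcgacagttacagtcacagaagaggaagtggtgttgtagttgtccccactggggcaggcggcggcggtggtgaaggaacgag

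The windows lie at chr5:92348840-92349139, minus strand for Cxcl10, chr19:34640639-34640938, plus strand for Ifit1, chr3:142559794-142560093, plus strand for Gbp3 (the first of 2 windows), chr12:26456403-26456702, minus strand for Rsad2 and chr17:57278850-57279149, plus strand for Vav1. The Cxcl10 window holds 1 match, which begins at base 38 of the window counted from its 5′ end. Ifit1 holds 2, at bases 147 and 166, and the 2 of Gbp3 overlap, at bases 206 and 212. The letters are not in the Vav1 window. The 31 genes looked up were Igtp, Eif2ak2, Parp12, Vav1 and named members of certain lists. Those lists were of interferon targets and signal transducers, nucleic acid sensors, chemokines and MHC class I. Of the 31 genes, 26 had a window and 12 of these a match. Among those without one were the interferon-related genes Ifit2, Herc6, Irf9, Irf7, Ube2l6, Trim25, Tlr3, Parp12, Tapbp and H2-K1, and the second window of Gbp3 holds none. In comparison, 3.99 percent of all 27025 genes with a window had a match (3.44 percent of all windows). Most genes looked up were chosen as interferon-related, so these are unlike sets and the comparison says nothing about the graft. The match is a description of these letters and does not show that a factor binds there.

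Chemokines, which draw immune cells into tissue, were measured for 25 genes. Of these, 7 were higher and 1 lower at an unadjusted p under 0.05, and 6 were apart and higher, but only Cxcl10 passed the adjusted test. Over all genes these shares were 5.56 percent higher, 3.31 percent lower and 2.51 percent apart and higher. Besides Cxcl10, those apart were Ccl3, Ccl5, Cxcl16 (0.35), Cxcl9 (0.67) and Ccl12 (0.32), and Cxcl9 and Ccl12 are named here because of their values. Ccl3, a chemokine made by microglia, was at 5.87, 6.22, 6.12, 6.19 and 6.13 in the vehicle mice, 7.06, 7.07, 6.54 and 6.89 in the 4 grafted mice and 6.27 in mouse 59. Its difference was 0.77 ± 0.15 (SE, adjusted p = 0.18) without mouse 59 and 0.65 (adjusted p = 0.18) with it. Ccl5, a chemokine of T cells and glia, was at 6.14, 6.40, 6.13, 5.51 and 6.22 in the vehicle mice, 6.57, 7.27, 6.78 and 7.84 in the grafted mice and 6.55 in mouse 59. Here vehicle mouse 47 was the lowest and grafted mouse 75 the highest, and the difference was 1.04 ± 0.34 (SE, adjusted p = 0.455, or 0.94 and 0.295 with mouse 59). The chemokine that was apart and lower, also named because of its value, was Cx3cl1, the neuronal ligand of the microglial receptor Cx3cr1, at -0.16. Of 19 chemokine receptors, none had an unadjusted p under 0.05 in the fit without mouse 59, none passed limma's adjusted test, and their median difference was -0.02 (-0.02 with mouse 59).

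The interferons and their receptors were measured for 22 genes, of which limma called 0 at either threshold with or without mouse 59, with a median difference of -0.05 (-0.02 with mouse 59). Ifnb1, interferon β, lay between 3.48 and 3.83 in vehicle and 3.36 and 3.55 in grafted mice, among the dimmest values on the array. Signal transducers came next in the pathway, with 4 of 15 higher at an unadjusted p under 0.05, or 2 with mouse 59. Their median was 0.02 (0.05 with mouse 59). Irf9, the DNA-binding part of the ISGF3 complex of type I interferon signalling, differed by 0.53 ± 0.15 (SE, adjusted p = 0.382, or 0.49 and 0.263 with mouse 59), and Irf7, which amplifies interferon expression, by 0.40 ± 0.18 (SE, adjusted p = 0.544, or 0.31 and 0.47 with mouse 59). Stat3, which carries signals of the interleukin 6 family, was apart with a difference of 0.19.

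Antiviral targets of interferon had a positive difference in 34 of 39 measured members, although none passed the adjusted test. Of these, 22 were higher and none lower at an unadjusted p under 0.05, with a median difference of 0.30 (0.25 with mouse 59) and 0.62 with litter as a fixed block, and 5 were apart. Ifit1, which binds viral RNA that lacks a host cap, was at 6.91, 7.56, 7.38, 6.91 and 7.26 in the vehicle mice, 7.66, 7.79, 8.46 and 9.36 in the grafted mice and 7.45 in mouse 59. Grafted mice 73 and 75 of litter 4 lay well above the rest, mice 56 and 57 just above the vehicle mice, and mouse 59 among them. Its difference was 1.14 ± 0.25 (SE, adjusted p = 0.285) without mouse 59 and 1.01 (adjusted p = 0.181) with it. Rsad2 (viperin), an enzyme that makes a chain terminator of viral RNA, was at 6.25, 6.30, 6.46, 6.19 and 6.42 in vehicle, 6.56, 6.70, 7.05 and 7.04 in grafted mice and 6.48 in mouse 59, with a difference of 0.53 ± 0.11 (SE, adjusted p = 0.265, or 0.48 and 0.165 with mouse 59). Eif2ak2 (PKR), the kinase that halts translation on double-stranded RNA, was apart at 0.66, as were Ifit2 (0.52) and Trim25 (0.36), the ubiquitin ligase of the RIG-I pathway. Parp12, an antiviral ADP-ribosyltransferase, was apart at 0.64.

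The interferon-inducible GTPases, which attack vacuoles that hold pathogens, had 9 of 16 members higher and 1 lower at an unadjusted p under 0.05. The lower one was Gbp6 (-0.33), named because it went the other way, and the median difference was 0.55 (0.50 with mouse 59). With litter as a fixed block this median was 1.53, and the differences of Igtp and Irgm2 were 2.61 and 1.99. Igtp (Irgm3) was at 6.21, 6.55, 6.26, 5.81 and 6.43 in vehicle mice, 6.83, 7.71, 6.72 and 7.58 in grafted mice and 6.80 in mouse 59. The closely related Irgm2 was at 5.94, 6.67, 6.50, 6.44 and 6.62 in vehicle mice, 7.14, 7.56, 6.78 and 7.56 in grafted mice and 6.73 in mouse 59. In both, mice 57 and 75 were high and mice 59 and 73 nearest to vehicle mouse 45, the highest of its group, and the differences were 0.95 ± 0.39 (SE, adjusted p = 0.511, or 0.87 and 0.37 with mouse 59) and 0.82 ± 0.31 (SE, adjusted p = 0.49, or 0.71 and 0.371 with mouse 59). Gbp7 and Gbp3, guanylate-binding proteins, differed by 0.63 and 0.74. In gene families as alike as these, probes can share signal between members.

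The ISG15 system attaches a ubiquitin-like protein to targets, and 4 of its 6 measured members were higher at an unadjusted p under 0.05. Their median was 0.37 (0.37 with mouse 59) and 0.86 with the litter block. Usp18, the protease that removes ISG15, differed by 0.98 ± 0.23 (SE, adjusted p = 0.285) without mouse 59 and 0.87 (adjusted p = 0.196) with it, and it reached 8.60 in mouse 75 against 7.14 in mouse 59, which lay below the highest vehicle mouse. Herc6, the mouse ISG15 ligase, was apart at 0.52 and Ube2l6, its conjugating enzyme, at 0.37. Nucleic acid sensors had 7 of 14 members higher and none lower at an unadjusted p under 0.05, none past the adjusted test, and a median of 0.25 (0.24 with mouse 59) and 0.41 with the litter block. Ddx58 (RIG-I) and Ifih1 (MDA5), sensors of double-stranded RNA in the cytosol, differed by 0.59 and 0.53. Tlr3, which senses it in endosomes, and Sting1, the adaptor of DNA sensing, were apart at 0.32 and 0.37.

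Within the grafted mice these lists were not even. Averaged over the antiviral genes, the difference from the ASO-Veh mean was 0.07 in mouse 56, 0.21 in mouse 57, 0.10 in mouse 59, 0.36 in mouse 73 and 0.59 in mouse 75, while the vehicle mice lay between -0.08 and 0.12. Mice 56 and 59 were thus within the vehicle range and both mice of litter 4 above it. Averaged over the GTPases, mouse 57 was at 0.59, mouse 75 at 0.71 and the vehicle mice between -0.16 and 0.16.

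**Figure D3:**
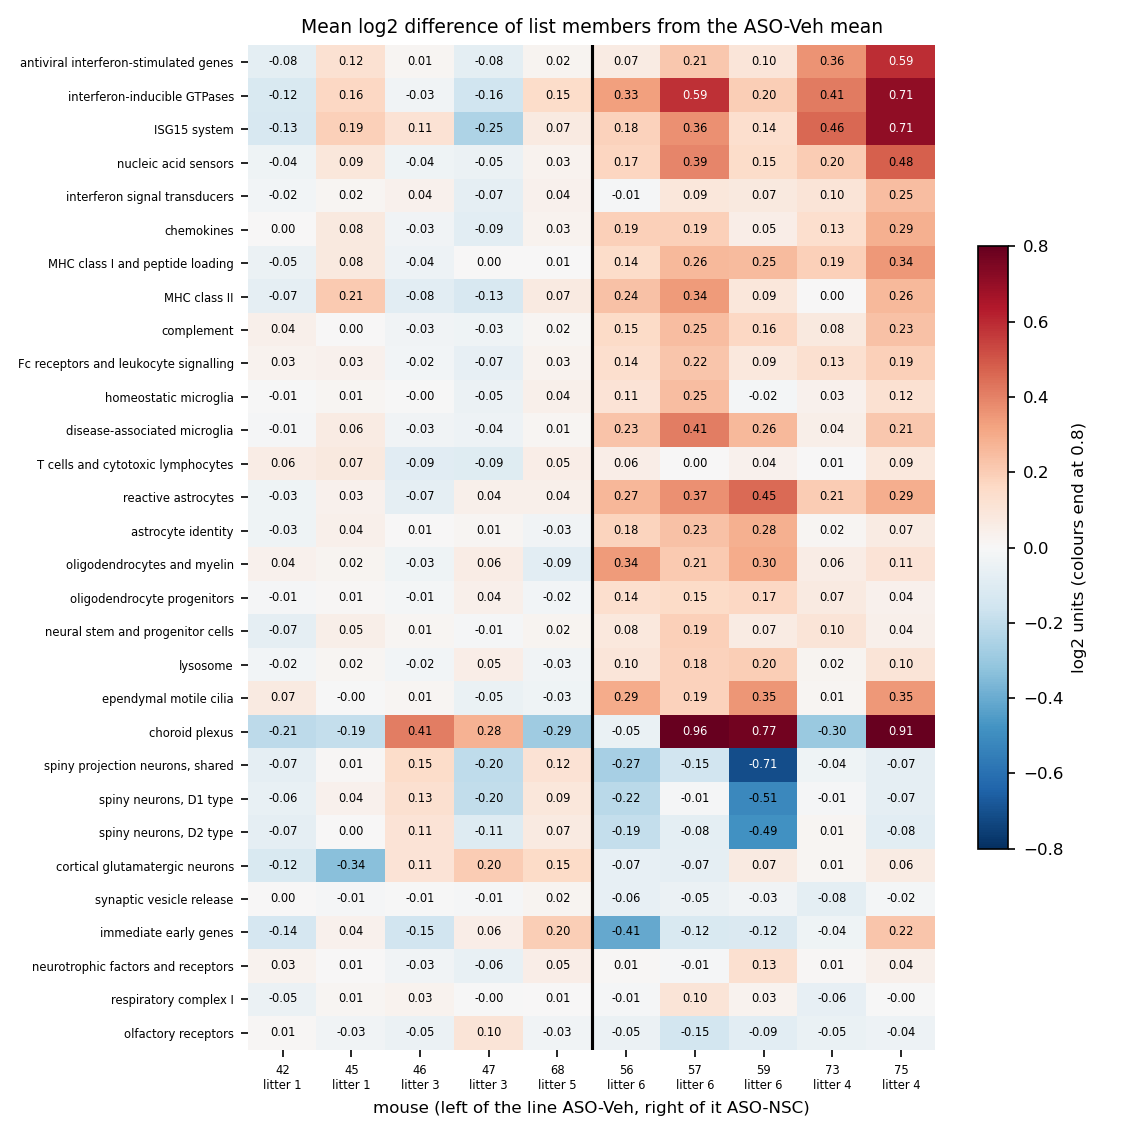
Each cell is the mean over the measured members of a list of the log2 difference between 1 mouse and the ASO-Veh mean, with ASO-Veh mice left and ASO-NSC mice right of the line and the litter under each mouse. The first 4 lists are highest in mouse 75, the astrocyte identity and myelin lists are highest in the mice of litter 6, and spiny neuron lists lowest in mouse 59.

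MHC class I presents peptides of the cell's own proteins to cytotoxic T cells, and 6 of 19 genes of this pathway were apart and higher, with 5 higher and none lower at an unadjusted p under 0.05 and a median of 0.24 (0.22 with mouse 59), which was 0.59 with litter as a fixed block. H2-K1, a heavy chain, was at 7.80, 8.59, 8.01, 8.18 and 8.21 in vehicle mice, 8.62, 9.01, 8.73 and 9.30 in grafted mice and 8.80 in mouse 59, so vehicle mouse 45 nearly reached grafted mouse 56. The difference was 0.76 ± 0.24 (SE, adjusted p = 0.445) without mouse 59 and 0.73 (adjusted p = 0.272) with it. B2m, the light chain, differed by 0.39 ± 0.13 (SE, adjusted p = 0.456, or 0.37 and 0.274 with mouse 59) at a level near 12.29, and Erap1, which trims the peptides, by 0.42 ± 0.11 (SE, adjusted p = 0.37, or 0.40 and 0.218 with mouse 59). Both were apart. Tapbp, which helps to load the peptides, differed by 0.26. MHC class II, which presents taken-up proteins, had 0 of 10 genes past either of limma's thresholds. Its chains H2-Aa and H2-Ab1 differed by 0.87 ± 0.47 (SE, adjusted p = 0.593, or 0.71 and 0.531 with mouse 59) and 0.78 ± 0.47 (SE, adjusted p = 0.622, or 0.70 and 0.52 with mouse 59), with overlap between the groups.

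Complement tags material for removal by phagocytes, and 5 of 19 genes were higher and none lower at an unadjusted p under 0.05, with a median of 0.21 (0.19 with mouse 59). C4b, the component that glia express in ageing and disease, was at 8.76, 9.07, 8.43, 8.83 and 8.82 in vehicle mice, 9.31, 9.62, 9.31 and 9.77 in grafted mice and 9.44 in mouse 59. All grafted mice lay above the highest vehicle mouse, mouse 45, and the difference was 0.73 ± 0.17 (SE, adjusted p = 0.285) without mouse 59 and 0.72 (adjusted p = 0.165) with it. C1qb, a chain of the first component made by microglia, differed by 0.32 ± 0.13 (SE, adjusted p = 0.52, or 0.27 and 0.407 with mouse 59) with overlap, and Itgam (CD11b), part of a complement receptor, by 0.24 ± 0.10 (SE, adjusted p = 0.507, or 0.22 and 0.369 with mouse 59) and was apart.

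Microglial and leukocyte genes had smaller differences. Of 28 Fc receptor and leukocyte signalling genes, 11 were higher and none lower at an unadjusted p under 0.05, 6 were apart, and Vav1 passed the adjusted test. Fcgr1, the high-affinity receptor for IgG, was at 6.65, 6.78, 6.51, 6.64 and 6.72 in vehicle mice, 7.0, 7.22, 6.93 and 7.17 in grafted mice and 6.84 in mouse 59, a difference of 0.42 ± 0.093 (SE, adjusted p = 0.285, or 0.38 and 0.18 with mouse 59). Pik3ap1 (0.29) and Dock2 (0.32), which link leukocyte receptors to PI3 kinase and Rac, were also apart. Myd88, the adaptor of most Toll-like receptors, was at 6.64, 6.69, 6.67, 6.70 and 6.55 in vehicle mice, 7.04, 7.03, 6.98 and 7.0 in grafted mice and 7.09 in mouse 59. The 2 groups each lay within a narrow band, and the difference was 0.36 ± 0.065 (SE, adjusted p = 0.18) without mouse 59 and 0.37 (adjusted p = 0.0599) with it, the smallest adjusted p after Vav1 once mouse 59 was in the fit. It shared that p with the insulin-like growth factor binding protein Igfbp5 (0.50), which is named because of its value. In the list of Toll-like receptors and inflammatory cytokines, 4 of 22 were higher at an unadjusted p under 0.05, Tlr2 and Casp4 among them at 0.26 and 0.38.

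Genes of homeostatic microglia had a median difference of 0.14 (0.11 with mouse 59), with 2 of 16 higher at an unadjusted p under 0.05. These were Csf1r, the receptor that keeps microglia alive, at 0.23 ± 0.075 (SE, adjusted p = 0.461, or 0.20 and 0.31 with mouse 59), and Tyrobp, the signalling partner of Trem2, at 0.26 ± 0.12 (SE, adjusted p = 0.547, or 0.25 and 0.389 with mouse 59), and both were apart. The defining markers P2ry12, Tmem119 and Cx3cr1 differed by 0.12, 0.13 and 0.09 without mouse 59 and by 0.05, 0.09 and 0.04 with it. In the disease-associated list, the state that microglia take around damage, 8 of 20 were higher at an unadjusted p under 0.05 and none passed the adjusted test, with a median of 0.18 (0.19 with mouse 59). With litter as a fixed block the medians of the homeostatic and disease-associated lists were 0.02 and 0.10. Clec7a, a receptor for β-glucans, was at 5.86, 6.10, 5.75, 5.65 and 5.72 in vehicle mice, 6.76, 7.20, 5.79 and 6.54 in grafted mice and 6.48 in mouse 59. Mouse 73 lay within the vehicle range and mouse 57 was the highest, with a difference of 0.72 ± 0.29 (SE, adjusted p = 0.512, or 0.67 and 0.366 with mouse 59). Ctss, a lysosomal protease of antigen presentation, and Axl, a receptor for the uptake of dead cells, were apart at 0.41 and 0.21, and Lilrb4a differed by 0.77 with overlap.

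Markers of invading lymphocytes were dim. T cell markers Cd3d, Cd3e, Cd3g, Cd8a and Cd4 averaged between 4.38 and 6.06 log2 units over all arrays and differed by 0.01, -0.06, 0.06, 0.09 and 0.01. Over the 26 genes of the T cell and cytotoxic list, 3 were higher at an unadjusted p under 0.05 and the median was 0.02 (0.01 with mouse 59). They were Eomes, Il10ra and Cd8b1. Il10ra, which the paper links to regulatory T cells, differed by 0.27 (0.24 with mouse 59) and Cd8b1 by 0.32 (0.35 with mouse 59). Zap70 differed by 0.18, and by 0.28 with mouse 59. The groups overlapped in these 3 genes once mouse 59 was included, and none passed the adjusted test. The 1 gene of the list that was apart, Eomes, which encodes a transcription factor of cytotoxic lymphocytes and of some neuronal progenitors, was at 5.97, 5.98, 5.74, 5.98 and 5.97 in vehicle mice, 6.87, 6.39, 6.24 and 6.71 in grafted mice and 6.42 in mouse 59. Its difference was 0.63 ± 0.22 (SE, adjusted p = 0.468, or 0.61 and 0.282 with mouse 59), which was not kept with the litter block (-0.007). The 10 measured B cell genes had 0 calls by limma at either threshold. Ly6c2 and Ccr2, markers of inflammatory monocytes, differed by -0.01 and -0.08, and in the list of border macrophages and monocytes 1 of 20 genes was higher at an unadjusted p under 0.05. The largest difference for its error was that of Cybb, a subunit of the phagocyte oxidase that microglia also express, at 0.69 ± 0.28 (SE, adjusted p = 0.509, or 0.64 and 0.367 with mouse 59).

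**Figure D4:**
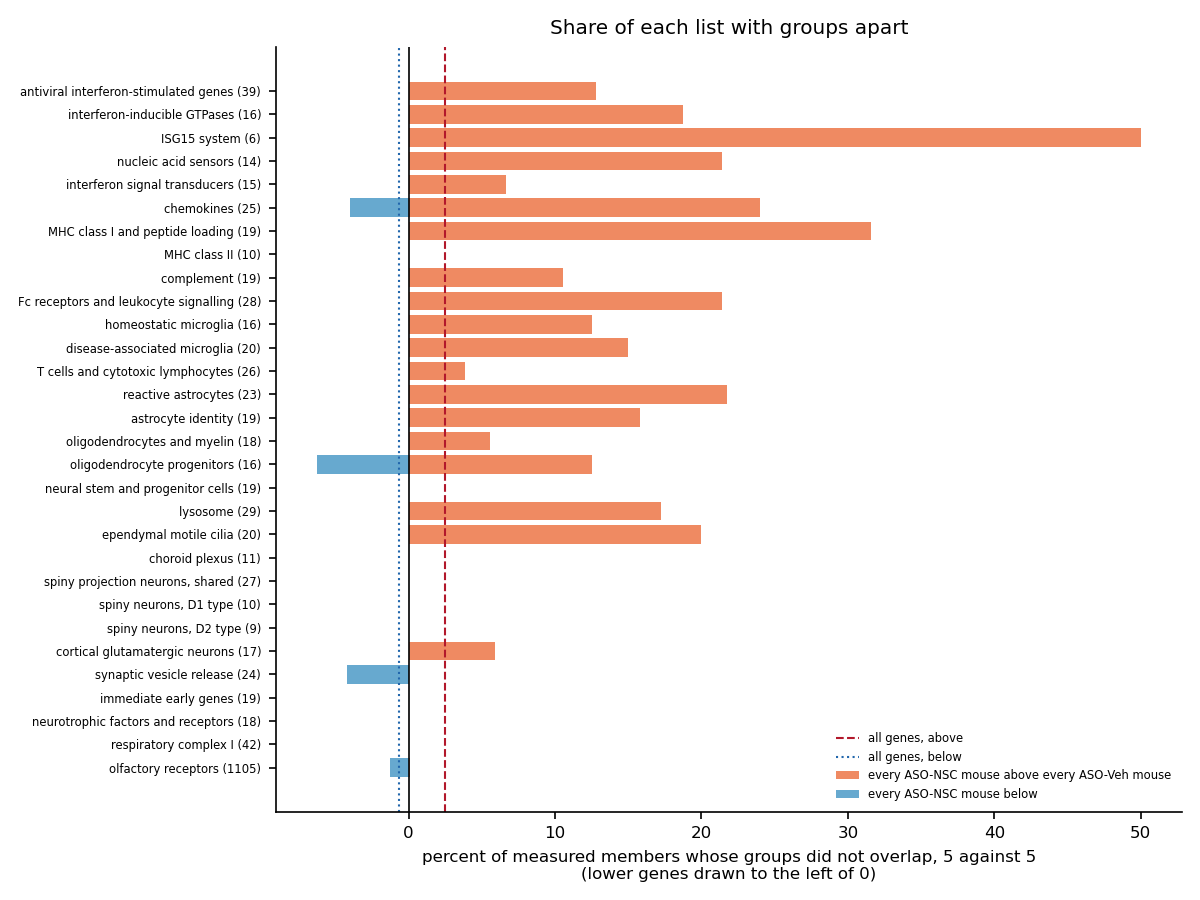
Bars give the percent of measured members of each list (their number in brackets) whose 5 ASO-NSC mice lay all above (orange) or all below (blue, left of 0) the 5 ASO-Veh mice, and the lines mark the same share over all genes, 2.51 percent above and 0.654 percent below. The ISG15 system has the longest bar, 3 of 6 members and the spiny neuron, choroid plexus, MHC class II and neural stem cell lists have none.

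Reactive astrocytes are the state that these cells take around injury. Of 23 genes of reactive astrocytes, 8 were higher and none lower at an unadjusted p under 0.05, or 11 with mouse 59, and the median was 0.19 (0.22 with mouse 59). Cxcl10 is on this list too and is its only gene past the adjusted test. Gfap, the intermediate filament of astrocytes, was at 8.83, 8.84, 8.49, 9.01 and 8.65 in vehicle mice, 9.56, 9.87, 9.25 and 9.46 in grafted mice and 10.03 in mouse 59, which was the highest of all. Its difference was 0.76 ± 0.16 (SE, adjusted p = 0.273) without mouse 59 and 0.85 (adjusted p = 0.144) with it. Serpina3n, a secreted protease inhibitor of reactive astrocytes, was at 8.55, 8.57, 8.33, 8.94 and 8.35 in vehicle mice, 9.53, 9.61, 8.81 and 9.11 in grafted mice and 9.98 in mouse 59. Mouse 73 lay below vehicle mouse 47, so the groups overlapped, and the difference was 0.69 ± 0.19 (SE, adjusted p = 0.37) without mouse 59 and 0.80 (adjusted p = 0.18) with it. Osmr, the oncostatin M receptor, differed by 0.36.

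Genes of astrocyte identity differed less, with 3 of 19 higher at an unadjusted p under 0.05, none past the adjusted test, and a median of 0.11 (0.11 with mouse 59) and 0.06 with litter as a fixed block. Aqp4, the water channel of astrocyte endfeet, was apart with a difference of 0.39 ± 0.10 (SE, adjusted p = 0.325) without mouse 59 and 0.42 (adjusted p = 0.171) with it, and Gja1, the gap junction protein connexin 43, was apart at 0.26. Slc1a3 and Aldh1l1, which mark astrocytes in any state, differed by 0.11 and 0.04, and the glutamate transporter Slc1a2 by 0.01 without and -0.02 with mouse 59. The mean of the list differed from the ASO-Veh mean by 0.18, 0.23 and 0.28 in the mice of litter 6 and by 0.02 and 0.07 in those of litter 4, against -0.03 and 0.04 as the lowest and highest vehicle mice.

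Oligodendrocytes wrap axons in myelin. Of 18 myelin genes, all had a positive difference, 4 were higher at an unadjusted p under 0.05 without mouse 59 and 8 with it, and the median was 0.15 (0.17 with mouse 59) and 0.08 with litter as a fixed block. Mog, a surface protein of myelin, was at 9.62, 9.59, 9.61, 9.66 and 9.54 in vehicle mice, 10.08, 10.04, 9.57 and 9.68 in grafted mice and 10.06 in mouse 59. The mice of litter 6 lay above 10 and those of litter 4 beside the vehicle mice, and the difference was 0.23 ± 0.11 (SE, adjusted p = 0.567, or 0.26 and 0.364 with mouse 59). Mbp, myelin basic protein, was apart at 0.13 ± 0.055 (SE, adjusted p = 0.515, or 0.14 and 0.316 with mouse 59), and Olig1, a transcription factor of the lineage, differed by 0.24. The progenitor markers Pdgfra and Cspg4 (NG2) were both apart and higher, at 0.25 ± 0.10 (SE, adjusted p = 0.518, or 0.23 and 0.365 with mouse 59) and 0.17 ± 0.061 (SE, adjusted p = 0.484, or 0.17 and 0.282 with mouse 59), with 3 of 16 genes of progenitors higher at an unadjusted p under 0.05. Of these 16 genes, 12 had a positive difference and 1 was apart and lower. The median of the progenitor list was 0.09 (0.11 with mouse 59) and 0.02 with litter as a fixed block. Neuronal markers also varied among these mice. The mean of the shared spiny neuron list, set against the ASO-Veh mean, was -0.27, -0.15 and -0.71 in mice 56, 57 and 59 of litter 6 and -0.04 and -0.07 in mice 73 and 75 of litter 4. Avp, the precursor of the hypothalamic peptide vasopressin, was at 9.72, 8.65 and 10.33 in litter 6 and 7.56 and 7.85 in litter 4. The part of the dissected region in the astrocyte and myelin values was not tested.

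Neural stem cell genes, of the cell type that was grafted, had small and mostly positive differences. Of 19 genes, 17 were positive (89.5 percent, against 51.2 percent of all genes). This share was not particular to the list. It was 89.7 percent in the lysosomal, 85.7 in the proteasome and 94.7 in the astrocyte identity list. Other lists had less, such as 54.8 percent in respiratory complex I and 38.6 in complexes III to V. The median level of the list was 7.86, and all genes between 7 and 8 had a median difference of 0.0428. At an unadjusted p under 0.05, 2 of these 19 genes were higher, none was apart, and their median was 0.11 (0.09 with mouse 59). The list mean lay above every vehicle mouse in 4 of 5 grafted mice. The paper states that most engrafted cells became glia, so these genes are a limited measure of the graft. Nes and Sox2, which mark stem cells, differed by 0.13 and 0.14, Dcx of young neurons by -0.04, and Mki67 of dividing cells by 0.11. The 2 higher genes, Tnc (0.29), a matrix protein, and Fabp7 (0.28), a lipid carrier, are also expressed by astrocytes. In the proliferation list, 3 of 26 were higher, and Top2a, which untangles DNA in dividing cells, was apart at 0.26 ± 0.10 (SE, adjusted p = 0.494, or 0.30 and 0.274 with mouse 59) at a dim level.

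Lysosomes degrade proteins such as α-synuclein, and 6 of 29 lysosomal genes were higher and none lower at an unadjusted p under 0.05, with a median of 0.08 (0.10 with mouse 59), 0.02 with litter as a fixed block, and 5 apart. Lamp2, a membrane protein that chaperone-mediated autophagy needs, was at 9.76, 9.88, 9.78, 9.98 and 9.83 in vehicle mice, 10.16, 10.16, 10.03 and 10.02 in grafted mice and 10.07 in mouse 59, a difference of 0.25 ± 0.078 (SE, adjusted p = 0.449, or 0.24 and 0.272 with mouse 59). Asah1, the acid ceramidase, was apart at 0.16, while Lipa (0.29) and Npc2 (0.21), which handle cholesterol, overlapped. Autophagy genes had 3 of 30 higher at a median of 0.04 (0.02 with mouse 59). Among antioxidant genes, Nqo1, a target of the factor NRF2, was apart at 0.37 ± 0.11 (SE, adjusted p = 0.41, or 0.40 and 0.2 with mouse 59), and 2 of 20 were higher and 1 lower.

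Of the 54 lists, that of genes shared by all spiny projection neurons had the median that mouse 59 shifted most. Over its 27 genes, the median difference was -0.14 without mouse 59 and -0.24 with it, and 2 genes were lower at an unadjusted p under 0.05 without it and 10 with it. None was higher in either fit. Averaged over the list, mouse 59 lay -0.71 from the ASO-Veh mean, mice 56 and 57 -0.27 and -0.15, mice 73 and 75 -0.04 and -0.07, and the vehicle mice between -0.20 and 0.15. With litter as a fixed block the median turned to 0.21. Rgs9, which speeds the end of dopamine signals, was at 11.51, 11.55, 11.65, 11.10 and 11.63 in vehicle mice, 11.04, 11.15, 11.48 and 11.37 in grafted mice and 10.39 in mouse 59. Strip2, the lower of these 2 genes by p, differed by -0.36 ± 0.13 (SE, adjusted p = 0.477) without mouse 59 and -0.50 (adjusted p = 0.272) with it, and Gng7, a G protein subunit of spiny neurons, by -0.23 without and -0.35 with mouse 59.

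Genes of the D1 and D2 types were also lowest in mouse 59. Drd1, the D1 dopamine receptor, was at 10.20, 10.38, 10.47, 9.96 and 10.57 in vehicle mice, 9.88, 10.16, 10.38 and 10.20 in grafted mice and 9.19 in mouse 59, and vehicle mouse 47 lay within the range of the grafted mice. Its difference was -0.16 without and -0.34 with mouse 59, that of Drd2, the D2 receptor, was -0.14 without and -0.28 with mouse 59, and neither passed the test. With the litter block both turned, to 0.28 and 0.13. Pdyn, the dynorphin precursor of D1 neurons, differed by -0.33 ± 0.12 (SE, adjusted p = 0.484) without mouse 59 and -0.44 (adjusted p = 0.274) with it, and Tac1, the substance P precursor, by -0.30 without and -0.42 with mouse 59.

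Mouse 59 also held transcripts of other brain regions. Pmch, Hcrt and Avp and the lists of region markers used here were chosen after their values were seen. Pmch, the precursor of melanin-concentrating hormone that neurons of the lateral hypothalamus make, was at 8.99 log2 units in mouse 59 and between 3.88 and 4.27 in the other 19 arrays of the series. Hcrt, the orexin precursor of the same area, was at 8.12 against 5.46 to 5.94. Of 7 measured hypothalamic peptide genes, 6 were higher in mouse 59 than in all other arrays, as were 6 of 6 hypothalamic transcription factors and 9 of 9 genes of the thalamus and other glutamatergic forebrain. The same held for 5 of 5 genes of dopamine and serotonin neurons, which were Th, Slc6a3, Ddc, Tph2 and Slc6a4. In all, 34 genes lay above and 9 below all other arrays and more than 1 log2 unit from the mean of the other ASO-NSC mice, against 1 to 8 above and 2 or 3 below for each of those 4 mice. Th, the enzyme of dopamine synthesis, was at 8.36 in mouse 59 and between 6.95 and 8.05 in the other 19 arrays, and its difference was 0.12 without and 0.32 with mouse 59 and -0.66 with the litter block. The part of these transcripts in the results with mouse 59 was not tested.

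Such transcripts were not limited to mouse 59. Slc17a6, the vesicular glutamate transporter of thalamic and hypothalamic neurons, was at 7.94, 7.65, 7.82, 9.48 and 7.42 in vehicle mice, 9.50, 8.95, 8.28 and 9.35 in grafted mice and 10.75 in mouse 59. Vehicle mouse 47 was as high as the grafted mice and the other vehicle mice lay below all of them, with a difference of 0.95 ± 0.45 (SE, adjusted p = 0.561) without mouse 59 and 1.27 (adjusted p = 0.323) with it. With litter as a fixed block it turned to -1.10. Avp, the vasopressin precursor, was at 7.09, 7.25, 7.05, 9.96 and 7.05 in vehicle mice, 9.72, 8.65, 7.56 and 7.85 in grafted mice and 10.33 in mouse 59. Calb2 (calretinin) differed by 1.12 ± 0.50 (SE, adjusted p = 0.533) without mouse 59 and 1.38 (adjusted p = 0.308) with it, and by -0.15 with the litter block. Mean levels over the 9 thalamic and forebrain genes ran from 7.28 to 8.02 in vehicle mice and from 7.55 to 8.23 in the 4 grafted mice, with mouse 59 at 9.23, and 3 of 5 grafted mice lay above every vehicle mouse. The cortical markers Slc17a7, Tbr1 and Neurod6 differed by -0.41, -0.12 and -0.13 with wide spread, at SEs of 0.55, 0.29 and 0.39.

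**Figure D5:**
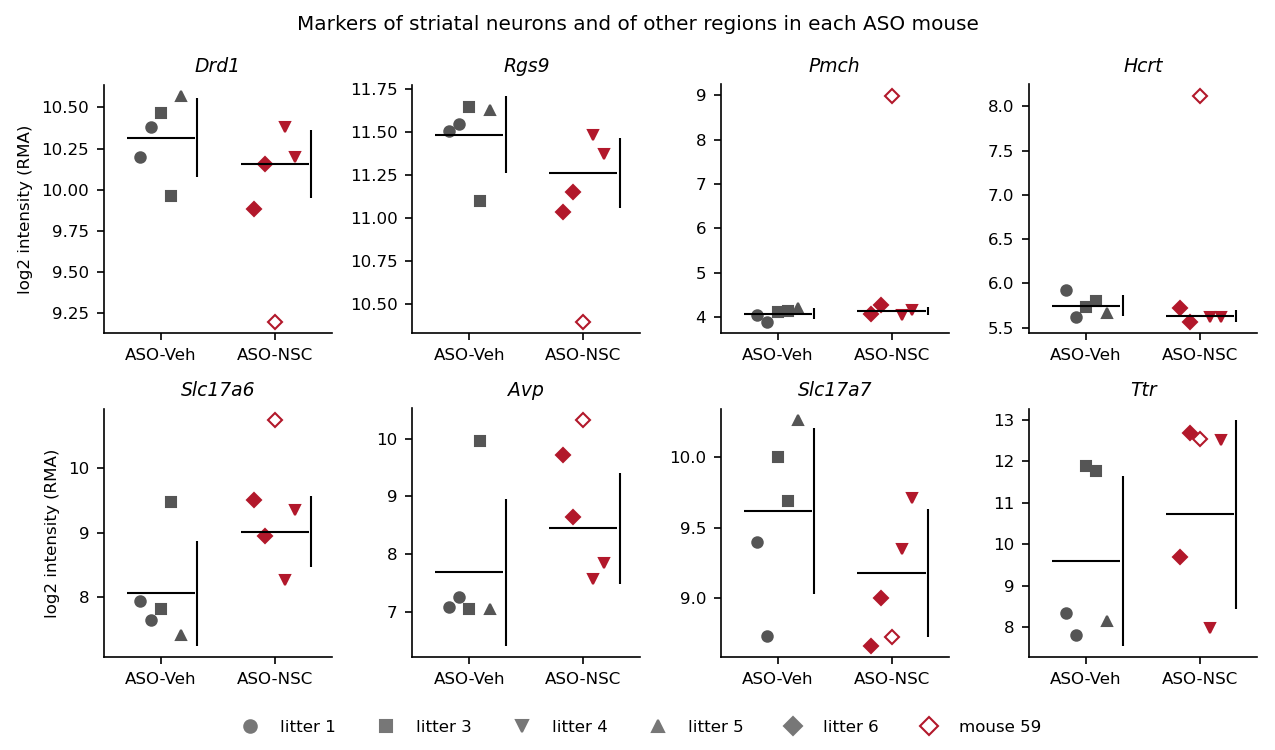
Log2 intensity of the spiny neuron genes Drd1 and Rgs9 and of marker genes of hypothalamus, thalamus, cortex and choroid plexus in each ASO mouse, drawn as in the plot of immune and astrocyte genes. Mouse 59 (open symbol) is lowest in Drd1 and Rgs9 and stands alone in Pmch and Hcrt, and vehicle mouse 47 lies with the grafted mice in Slc17a6 and Avp.

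Choroid plexus, the ventricular tissue that makes cerebrospinal fluid, varied between mice of both groups. Its main product Ttr, transthyretin, was at 8.35, 7.82, 11.89, 11.76 and 8.15 in vehicle mice, 9.69, 12.69, 7.99 and 12.50 in grafted mice and 12.55 in mouse 59. Mice 46, 47, 57, 59 and 75 were high and the others low, and the difference of 1.09 had an SE of 1.24 and turned to -3.37 with the litter block. None of 11 genes of this tissue had an unadjusted p under 0.05 without mouse 59, and limma called 0. Motile cilia genes of the ventricle lining had 4 of 20 members higher and 4 apart, with a median of 0.23 (0.26 with mouse 59). Cfap43 and Ak7, parts of the motile cilium, were apart at 0.37 ± 0.15 (SE, adjusted p = 0.509, or 0.41 and 0.296 with mouse 59) and 0.42 ± 0.19 (SE, adjusted p = 0.547, or 0.46 and 0.348 with mouse 59), and their mean over the list was near the vehicle level in mouse 73 alone of the grafted mice (0.01). Foxj1, the master factor of motile cilia, differed by 0.22. The part that ventricle lining or choroid plexus in the dissected piece had in other results was not tested.

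Neurons release transmitter from synaptic vesicles. Of 24 genes of vesicle release, 2 were lower and none higher at an unadjusted p under 0.05. With mouse 59 in the fit, 2 were lower and 2 higher. The median was -0.06 (-0.05 with mouse 59) and -0.025 after median centring of the arrays. Uncentred list means, set against the ASO-Veh mean, lay between -0.08 and -0.02 in the 5 grafted mice. In the vehicle mice they lay between -0.01 and 0.02, without overlap. The medians of whole arrays ran from 6.168 to 6.226 in ASO-NSC and from 6.211 to 6.256 in ASO-Veh mice. The part of this array-wide shift in the narrow gap between the list means was not tested. Unc13a, which primes vesicles for release, was at 10.63, 10.58, 10.62, 10.44 and 10.57 in vehicle mice, 10.18, 10.10, 10.45 and 10.48 in grafted mice and 10.08 in mouse 59, and mice 73 and 75 reached vehicle mouse 47. Its difference was -0.26 ± 0.095 (SE, adjusted p = 0.484) without mouse 59 and -0.29 (adjusted p = 0.272) with it. Of 23 genes of glutamate receptors and transporters, 1 was higher, the kainate receptor Grik1 (0.36), and 3 were lower with mouse 59. Gabre, the ε subunit of GABA-A receptors, stood out from its family at 6.80, 7.03, 6.29, 7.19 and 6.29 in vehicle mice, 7.95, 7.20, 7.35 and 7.49 in grafted mice and 8.05 in mouse 59. Vehicle mouse 47 and grafted mouse 57 nearly met, and the difference was 0.78 ± 0.31 (SE, adjusted p = 0.503) without mouse 59 and 0.89 (adjusted p = 0.282) with it. Maob, which breaks down dopamine and is expressed by astrocytes, and Qdpr, which regenerates the cofactor of Th, were apart at 0.27 ± 0.10 (SE, adjusted p = 0.484, or 0.37 and 0.274 with mouse 59) and 0.23 ± 0.071 (SE, adjusted p = 0.447, or 0.25 and 0.221 with mouse 59), and Maob was at -0.02 with the litter block.

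Neurotrophic factors and their receptors had 0 of 18 genes past either of limma's thresholds with or without mouse 59, at a median difference of 0.03 with it. Bdnf, which supports striatal and cortical neurons, was at 6.01, 5.90, 5.94, 5.89 and 6.01 in vehicle mice, 5.93, 5.83, 5.90 and 6.03 in grafted mice and 6.14 in mouse 59. The groups overlapped, with a difference of -0.03 ± 0.071 (SE, adjusted p = 0.926, or 0.02 and 0.931 with mouse 59). Respiratory complex I, which feeds electrons into the mitochondrial chain, had 0 of 42 genes past either threshold without mouse 59, at a median of 0.01 (-0.00 with mouse 59), and complexes III to V had 1 of 44 at an unadjusted p under 0.05 at -0.03 (-0.01 with mouse 59). Cytosolic ribosomal proteins had 2 of 67 higher and 4 lower. Immediate early genes, which follow recent neuronal firing, had none at an unadjusted p under 0.05 without mouse 59 and 2 lower with it, with a median of -0.11 (-0.10 with mouse 59). Psmd1 and Psmd10, parts of the proteasome, were apart at 0.16 and 0.21, with 3 of 35 higher, where 5.56 percent of all genes were higher.

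Counts in each direction depended on the level of a gene. Among 2217 genes with a mean level under 4 log2 units, 2 were apart and higher and 15 apart and lower. Between 7 and 8 the counts were 153 and 10 of 3526 genes. Over all 22180 genes they were 556 (2.51 percent) and 145 (0.654 percent). Genes under 4 log2 units thus differed from all genes by few higher members, and their share of lower members was close to that of all genes. Lower genes outnumbered higher ones up to a level of 6. Between 4 and 5, 5 were apart and higher and 24 apart and lower of 2411 genes. Between 5 and 6 the counts were 33 and 36 of 3778. Median differences were -0.0496 under 4 log2 units and 0.0428 between 7 and 8. With each array centred on its median they were -0.0158 and 0.0766. Psg25, a pregnancy-specific glycoprotein known from placenta, had the most negative difference among genes apart, at 3.76, 4.29, 4.04, 4.36 and 4.19 in vehicle mice, 3.34, 3.41, 3.56 and 3.11 in grafted mice and 3.75 in mouse 59. Its difference was -0.78 ± 0.15 (SE, adjusted p = 0.18) without mouse 59 and -0.72 (adjusted p = 0.165) with it, at levels where few transcripts are detected. The group of olfactory receptors, which nasal neurons express, had 92 of 1105 members lower and 14 higher at an unadjusted p under 0.05, at a median level of 3.68 and a median difference of -0.07 without mouse 59, -0.07 with it and -0.04 after centring. Keratins and their associated proteins, of hair and skin, had 11 lower and 1 higher of 107.

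Of the lower genes with clear expression, Malat1, an abundant nuclear RNA, was at 8.96, 8.96, 9.18, 8.87 and 9.19 in vehicle mice, 8.85, 8.86, 8.27 and 8.52 in grafted mice and 8.80 in mouse 59. Mice 73 and 75 of litter 4 were lowest and mice 56, 57 and 59 just below vehicle mouse 47, a difference of -0.42 ± 0.14 (SE, adjusted p = 0.461) without mouse 59 and -0.39 (adjusted p = 0.282) with it. Pilrb1, an activating receptor of myeloid cells, was apart at -0.42 ± 0.091 (SE, adjusted p = 0.285) without mouse 59 and -0.40 (adjusted p = 0.165) with it. Snord88a, a small nucleolar RNA, was apart at -0.36 ± 0.091 (SE, adjusted p = 0.325, or -0.33 and 0.218 with mouse 59), while of 73 such RNAs 3 were lower and none higher. Others among the 12 largest differences in each direction with groups apart were Postn (0.69), a matrix protein made around injury, and at the lower end Zfp972 (-0.59), AA536875 (-0.53), Gm6592 (-0.52), Krtap12-1 (-0.47), Scgb2b20 (-0.46), Cts8 (-0.45), Olfr1373 (-0.45), Olfr765 (-0.44) and Gm10272 (-0.42), none of which passed the adjusted test.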

How the data were processed

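RNA of the striatum of each mouse was measured on 1 Affymetrix Mouse Gene 2.0 ST array. The authors computed the deposited log2 expression values with RMA in the package oligo, summarised per transcript cluster (41345 rows). According to the paper, samples were adjusted for sex and litter before the network was built. The sex genes still differ between arrays in the deposited values, and whether these carry a litter adjustment was not tested. The values carry no read depth, so precision is limited by the number of arrays.

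Gene names came from the platform annotation. Of the rows, 23521 had 1 symbol, 1820 had several and were left out, and of the 1082 genes with more than 1 row the row with the highest interquartile range was kept. The fit used limma 3.58.1 under R 4.3.3 (a coefficient for each of 4 groups plus labelled sex, moderated statistics with 18.21 degrees of freedom, two-sided, Benjamini-Hochberg over 22180 genes). The script was tested on simulated data. Python 3.11.15 did the counting, and the promoter windows are those of RefSeq. The paper states that littermates were divided into groups at random, but no litter among these arrays holds both ASO-NSC and ASO-Veh mice. The p-values rest on a spread pooled over the 4 groups, WT mice included, and moderated across genes. With only the ASO groups in the fit, 0 genes passed.

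The comparison, the 54 gene lists and the rule for named genes were chosen with earlier results of these data known. The rule named every gene past the adjusted test, the 12 per direction with the largest difference among genes at an unadjusted p under 0.05 and apart both with and without mouse 59, up to 4 members per list by moderated statistic, cell type and sex markers, and Bdnf, Th, Slc1a2 and Slc17a7. Alternatives changed the arrays, sex term, litter block, variance prior, rows, filters, centring or test, or left out each mouse in turn. One more, with mouse 59 and without mouse 75, was chosen after seeing the data.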

Additional observations from a re-analysis of the deposited data

Results flagged for a closer look

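In the 5 mice of a group, a mouse was picked out where its gap to the nearest other mouse took up more of the range of the group than Dixon's 95% value of 0.71. Of 248 groups tested (124 genes, 2 groups each), 18 were picked out, and chance flags about 1 in 20 groups. The level of the mouse is given first and the range of the other 4 mice of its group after it.

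ASO-Veh mouse 47 had the most of these, with Ube2l6 (6.21 against 6.48 to 6.56), Ak7 (6.56 against 6.89 to 6.90), Gng7 (11.33 against 11.61 to 11.67), Slc17a6 (9.48 against 7.42 to 7.94), Psmd1 (10.27 against 10.17 to 10.19), Rgs9 (11.10 against 11.51 to 11.65) and Pde10a (10.99 against 11.26 to 11.35). It was thus low in the spiny neuron genes Gng7, Rgs9 and Pde10a and high in Slc17a6. ASO-NSC mouse 59 was picked out for Olfr765 (4.26 against 5.00 to 5.07), Cd4 (5.56 against 6.11 to 6.16) and Th (8.36 against 7.23 to 7.42).

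Among interferon-related genes, ASO-NSC mouse 75 was high in Herc6 and ASO-Veh mouse 45 in Ddx58, with Herc6 (8.80 against 8.23 to 8.38) and Cd3e (5.82 against 5.28 to 5.34) in mouse 75 and Ddx58 (7.43 against 7.15 to 7.22) in mouse 45. The others were Ifnb1 (3.83 against 3.48 to 3.53) in ASO-Veh mouse 42, Eomes (5.74 against 5.97 to 5.98) in ASO-Veh mouse 46, Pdgfra (9.33 against 8.96 to 9.04) in ASO-NSC mouse 56, Aldh1l1 (8.87 against 8.64 to 8.70) in ASO-NSC mouse 57 and Snord88a (5.81 against 6.23 to 6.32) in ASO-NSC mouse 73.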

How the results depend on the processing

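The number of genes at an adjusted p under 0.05 was 2 with 19 arrays. It was 1 with all 20 arrays, without the sex term, with a trended and robust prior and among the more variable 50 percent of genes, and 4 with sex taken from the sex genes. It was 0 in limma with litter as a fixed block (1133 genes at an unadjusted p under 0.05), with only the ASO groups in the fit (2183, or 2568 with mouse 59), without the 5 arrays of unclear sex (2290) and, chosen after seeing the data, with mouse 59 and without mouse 75 (2527), and 0 with separate variances per gene (1984). Leaving out each mouse in turn gave 0 to 1. Centring each array on its median left 117 lower genes apart without and 84 with mouse 59, where the uncentred counts were 209 and 145. The test of the difference between genotypes called 0 genes with 19 arrays, with 20 arrays and with the litter block (807, 965 and 792 at an unadjusted p under 0.05). No paired analysis was possible because each array is of a different mouse and no litter holds mice of both groups.

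Of the list medians described, those of the 3 spiny neuron lists (0.21 shared, 0.10 D1 type, 0.088 D2 type), the choroid plexus (-0.19), immediate early genes (0.13) and the proteasome (-0.0032) were among those that turned with litter as a fixed block. With litter as a fixed block, which rests on a single WT-NSC mouse sharing a litter with ASO-Veh mice, the log2 difference turned for Zfp972 (0.35), Cts8 (0.039), Gm10272 (0.15), Lilrb4a (-0.15), Eomes (-0.007), Olig1 (-0.002), Fabp7 (-0.17), Gng7 (0.22), Tac1 (0.054), Calb2 (-0.15), Slc17a6 (-1.10), Maob (-0.025), Grik1 (-0.29), Drd1 (0.28), Drd2 (0.13), Rgs9 (0.44), Pde10a (0.26), P2ry12 (-0.09), Tmem119 (-0.012), Cd3d (-0.39), Cd3g (-0.011), Cd4 (-0.036), Nes (-0.002), Dcx (0.098), Ttr (-3.37) and Th (-0.66). With all 20 arrays it turned for Cd4 (-0.097), Bdnf (0.021) and Slc1a2 (-0.016), with only the ASO groups and mouse 59 for Cd4 (-0.08), Bdnf (0.017) and Slc1a2 (-0.017), and with mouse 59 and without mouse 75 for Cd4 (-0.13), Bdnf (0.011) and Slc1a2 (-0.002). Without the 5 arrays whose sex genes and label disagreed it turned for Cd3d (-0.04), Cd4 (-0.017), Ly6c2 (0.05), Ccr2 (0.066) and Slc1a2 (0.0). Centring turned Ly6c2 (0.025) and Bdnf (0.008), and Ly6c2 also turned without the sex term (0.002), with only the ASO groups (0.001) and with separate variances per gene (0.002). Over the fits without 1 mouse, the sign changed for Neurod6 (-0.29 to 0.032), Cd3d (-0.036 to 0.085), Cd4 (-0.006 to 0.055), Ly6c2 (-0.063 to 0.035), Aldh1l1 (0.0 to 0.065), Dcx (-0.10 to 0.024) and Slc1a2 (-0.022 to 0.037). The cause of these turns was not tested.

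Dim genes have little signal over background. With 5 mice against 4 or 5 and litters that do not cross, the effects of litter and graft cannot be told apart by any of these fits.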

Other observations

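The remaining lists had few members at an unadjusted p under 0.05 in limma's fit with 19 arrays, and none past the adjusted test. Blood vessel cells (endothelial cells and pericytes) had 0 higher and 0 lower of 25, at a median of 0.04. Fibroblast and collagen genes had 1 higher and 2 lower of 17, where the higher one was Pdgfra, which oligodendrocyte progenitors also express. Striatal interneurons had 1 higher and 0 lower of 19, and that gene was Calb2. Genes of cortical glutamatergic neurons had 2 higher and 0 lower of 17, and Slc17a6 was among the higher ones. Only 4 of the 17 had a positive difference. Their median was -0.08 (-0.08 with mouse 59) and -0.41 with litter as a fixed block. The list of dopamine synthesis, transport and breakdown had 2 higher and 0 lower of 16, and GABA-A receptor subunits had 1 higher and 0 lower of 10. Mitochondrial ribosomal proteins had 3 higher and 2 lower of 71, at a median of 0.04. Heat shock proteins and chaperones had 1 higher and 0 lower of 28, and cholesterol synthesis, which supplies myelin, had 0 higher and 0 lower of 15 at a median of 0.08. The clock and glucocorticoid response list had 3 higher and 0 lower of 23. Spiny neurons of the D1 type had 0 higher and 1 lower of 10 and those of the D2 type 0 higher and 0 lower of 9. The single red blood cell gene measured differed by -0.10.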
